A study of Mus musculus with 12 samples.

Results

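Resting regulatory T cells (Treg) of Cd83 knockout mice were compared with those of wild-type mice on 6 of the series' 12 Agilent 1-colour expression arrays. The members of the comparison were taken by their sample labels alone, 3 knockout and 3 wild-type arrays of unstimulated cells. All 18544 genes with signal in at least 1 of the 4 groups of the series were tested. All mice were female and on the C57BL/6 background, and all arrays held RNA from sorted splenic Treg. The knockout genotype is written CD83cKO in the labels and the control CD83 WT. The labels give no promoter for the recombinase and do not say which part of Cd83 was deleted, while the series title speaks of CD83 in Foxp3+ T cells. Knockout replicates 1 and 2 came from 10-week-old mice, knockout replicate 3 from a 21-week-old mouse and the 3 wild-type arrays from 9-week-old mice. The other 6 arrays, from cells activated for 3 h with anti-CD3 and anti-CD28, entered the model to share its estimate of the spread. They also entered the scaling, the filter on dim probes and the choice of the probe for each gene. The study lists 6 mice for its 12 arrays and its labels do not link arrays to animals, so p-values measure the spread between these arrays, which may be technical in part.

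CD83 is a membrane protein of the immunoglobulin superfamily, best known as a marker of mature dendritic cells and also made by activated B cells, T cells and Treg. Treg are CD4+ T cells that carry the transcription factor Foxp3 and a high level of the interleukin-2 receptor alpha chain, and they restrain other immune cells. Effector Treg are the subset that has seen antigen and is marked by receptors such as Klrg1, Icos and Tnfrsf9. The spleen also holds red pulp macrophages, which clear aged red cells, recycle iron and depend on the transcription factor Spic.

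The sequences below are shown because the results turn on a group of macrophage genes that were higher in the knockout and on S100 genes that were lower. GAGGAAGT is the core of a binding site of PU.1, the factor that directs myeloid gene expression, and it was searched on both strands in the 250 bases before and 50 bases after each start site of RefSeq promoters (build GRCm38.p6). A gene was counted if any of its promoters held these letters. Of genes with a promoter found, 14 of 249 called higher in the knockout were counted (5.62%), 1 of 29 called lower (3.45%) and 407 of 10453 tested (3.89%). Among all 27025 genes with a promoter, 997 were counted (3.69%). A match is a description of letters, not of a bound site. Cttnbp2nl and Gm14548, called genes named below, also held matches before the start site. They are examples and not a full list, and whether Csf1r held a match is not stated here. The windows shown are a choice and do not tie the letters to macrophage genes. The 2 windows below each hold 50 bases on either side of the match and end before the start site, on the strand of the gene. Capitals mark the match, which is on the opposite strand in C1qc and reads there as ACTTCCTC. C1qc encodes a chain of complement C1q, and Cd300ld an activating receptor of myeloid cells.
C1qc, chr4:136893052-136893159, minus strand, match 195 bases before the start: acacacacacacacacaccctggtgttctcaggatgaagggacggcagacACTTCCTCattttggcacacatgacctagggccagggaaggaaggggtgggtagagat
Cd300ld, chr11:114989972-114990079, minus strand, match 143 bases before the start: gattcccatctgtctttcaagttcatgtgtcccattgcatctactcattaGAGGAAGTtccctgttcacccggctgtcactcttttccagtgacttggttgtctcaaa
S100a4 was read by 2 probes of 60 bases each, and the one shown lies at chr3:90409734-90409793 on the plus strand (mm9, the build of the array design): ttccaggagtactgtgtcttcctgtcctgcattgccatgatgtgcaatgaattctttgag

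Values are log2 signals on a scale where 0 is the 75th percentile, on that array, of the probes detected on all 12 arrays. Differences are knockout minus wild type on that scale, with the standard error of the model. A gene was called when limma's adjusted p (Benjamini-Hochberg over all genes tested) was under 0.05. Between 46.5% and 55.4% of probes were well above background on the 6 arrays, the 75th percentile of the signal ranged from 207.9 to 378.4, and no spot was saturated. The 6 knockout arrays lay on 1 slide and the wild-type arrays at 0 h on another, and no slide held both genotypes, so an effect of the slide cannot be told apart from one of the genotype. The labels state that 20 ng of RNA was amplified for a "sample 1 0h" of unnamed genotype and 40 ng for all other samples.

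The 21-week knockout array stood apart from the 10-week knockout arrays. On it, 810 genes were more than 2 log2 units higher and 471 more than 2 lower than the mean of the 10-week arrays, whereas 151 genes differed by more than 2 between the 10-week arrays themselves. Most named genes and the list medians are therefore given for the 10-week arrays and the 21-week array separately, and a lower bound on a rise is given for the whole group and for the 10-week arrays. Counts described as without the 21-week arrays come from a fit that left out the 21-week array at 0 h and the one at 3 h. The genes that stood out were of several kinds. Camp, which encodes the neutrophil antimicrobial peptide cathelicidin, was at -6.73 and -6.63 on the 10-week knockout arrays, 2.53 on the 21-week array, and -6.74, -6.51 and -7.06 on the wild-type arrays. Igkv6-20, an immunoglobulin light chain segment, was at -4.53 and -5.15 at 10 weeks, 2.51 at 21 weeks, and -6.31, -6.38 and -9.59 in wild type. Celf4, which encodes an RNA-binding protein, was at -4.29 and -4.45 at 10 weeks, 4.26 at 21 weeks, and -4.62, -5.09 and -4.90 in wild type. Lrrc32, which encodes GARP, the Treg surface protein that holds latent TGF-beta, went the other way. It read 2.88 and 2.68 at 10 weeks, -2.19 at 21 weeks, and 3.35, 3.16 and 3.08 in wild type. Prg4, which encodes lubricin, was at -3.00 and -2.95 at 10 weeks, -8.69 at 21 weeks, and -2.80, -2.91 and -2.88 in wild type. With 1 array of that age at 0 h there is no replicate behind these differences, and age cannot be told apart from the array itself.

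Cd83 was lower on every knockout array. Its single tested probe (chr13:43898276-43898335, plus strand, mm9) read 0.75 and 0.29 on the 10-week knockout arrays, 0.23 on the 21-week array, and 2.36, 2.17 and 2.38 on the wild-type arrays. The groups did not overlap, and the probe stayed above background on all 3 knockout arrays. The difference was -1.88 ± 0.265 (SE; limma adjusted p = 0.0089), a 3.68-fold lower signal, with -1.78 for the 10-week arrays (limma adjusted p = 0.00479) and -2.07 for the 21-week array. The labels do not place this probe inside or outside the deleted part, so the residual signal does not measure how complete the deletion was. Without wild-type replicate 1 or without wild-type replicate 3 the limma adjusted p was 0.0508 and 0.0513.

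Across the array, 337 genes were called higher in the knockout (1.82% of those tested) and 48 lower (0.259%). All 385 (2.08%) lay in the same direction on the 21-week array as over the group. This is no separate check, because that array was among those behind the calls. In none of the 385 did a knockout array overlap a wild-type array. Such separation was itself common, with every knockout array above every wild-type array in 3126 genes (16.9%) and below in 2739 (14.8%). Of all genes tested, 8799 lay above 0 over the 3 knockout arrays and 9745 below. At an unadjusted limma p under 0.05, 10.6% were higher and 4.78% lower. Without the 21-week arrays 874 genes were called higher (4.71%) and 355 lower (1.91%), among them 327 of the 337 and 45 of the 48, and 857 genes were called in that fit alone. The remaining arrays are shared by both fits. With the 21-week array at 0 h left out and the one at 3 h kept, 183 genes were called higher and 31 lower. The signal in wild type was not above background on any array for 73 of the 337, whose fold is a lower bound. The split between directions moved with the scaling: 87.5% of calls were rises here, against 71.7% (261 higher, 103 lower) when arrays were aligned on the 75th percentile over all probes. Leaving out wild-type replicate 1 left 71 genes called higher and 10 lower, and leaving out wild-type replicate 3 left 75 and 11. Of 78 called genes chosen by rule for naming, 34 and 35 kept their call in these fits, between 52 and 71 in the fits that left out another of the 6 arrays, and 31 in all 6 fits. Each gene below is given with the number of those 6 fits in which it held, where that is under 6 and its values are given in full. The shares over all genes in this paragraph are the background for the list counts below.

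**Figure D1:**
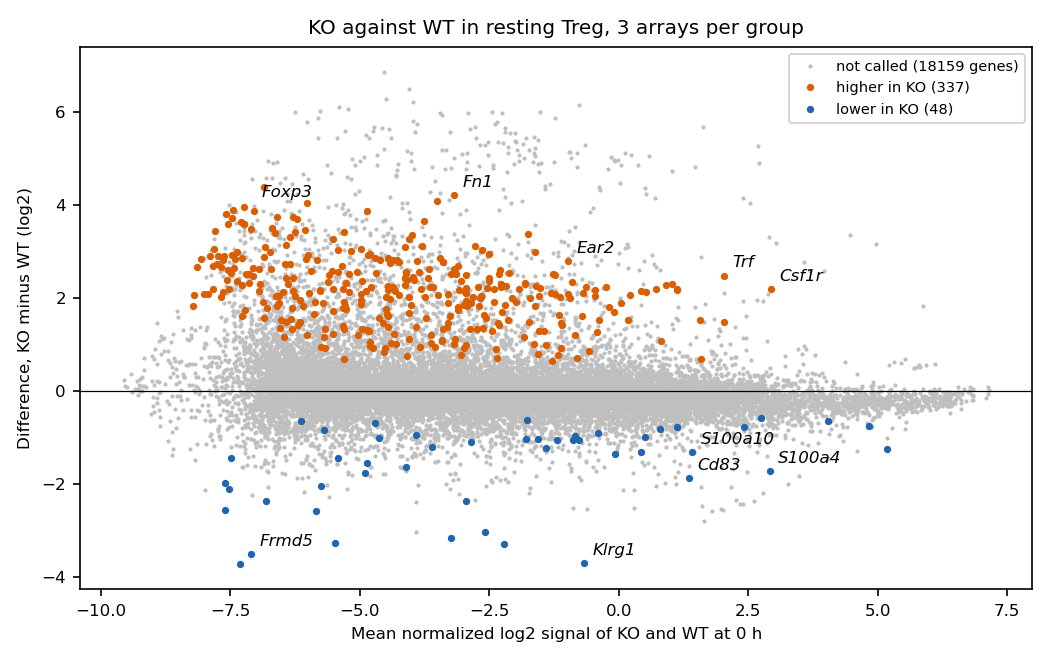
Difference between knockout and wild type (log2, vertical axis) against the mean normalized log2 signal of both groups (horizontal axis) for 18544 genes, 3 arrays per group. The 337 genes called higher in the knockout (orange) spread over all signal levels, the 48 called lower (blue) include S100a4 and Cd83 among the brighter genes, and many grey points with large positive differences were not called.

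Several of the rises with the largest test statistics are known from macrophages and other myeloid cells. Ear2, an eosinophil-associated ribonuclease gene also expressed in macrophages, read 0.38 and 0.40 on the 10-week knockout arrays, 0.50 on the 21-week array, and -2.71, -1.94 and -2.46 in wild type. It rose 6.93-fold (2.79 ± 0.26, limma adjusted p = 0.00209), by 2.76 at 10 weeks and 2.87 at 21 weeks. Cd300ld read -2.29 and -1.61 at 10 weeks, -1.91 at 21 weeks, and -5.13, -5.38 and -6.27 in wild type. Its rise was 12.6-fold (3.65 ± 0.344, limma adjusted p = 0.00209), with 3.64 at 10 weeks and 3.68 at 21 weeks. In both genes the 3 knockout arrays lay within 1 log2 unit of each other and well clear of every wild-type array. Plbd1, which encodes a lysosomal phospholipase B-like protein, read 1.85 and 1.98 at 10 weeks, 2.29 at 21 weeks, and -0.46, 0.02 and -0.24 in wild type. It rose 4.82-fold (2.27 ± 0.247, limma adjusted p = 0.00406). Ear10, a second gene of the ribonuclease family, rose by 2.69 at 10 weeks and 2.90 at 21 weeks, and C6, a component of the terminal complement complex, by 2.45 and 1.83. Ear genes and the paired receptor genes named below belong to families of similar sequence, and how far their probes read each other's transcripts was not tested.

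Other genes of this leading group act in signalling, lipid handling and the cell cycle. Skp2, the F-box protein that targets the cell cycle inhibitor p27 for degradation, read -3.75 and -3.87 at 10 weeks, -3.82 at 21 weeks, and -5.48, -5.05 and -5.27 in wild type. The rise was 2.73-fold (1.45 ± 0.156, limma adjusted p = 0.00406) and the same size at both ages. Acer3, an alkaline ceramidase gene, rose by 1.39 at 10 weeks and 1.34 at 21 weeks, and Fnip2, which encodes a partner of folliculin, by 1.79 and 2.06. Gm14548 rose by 1.97 at 10 weeks and 2.03 at 21 weeks. For genes with no wild-type array above background only bounds can be given. Nxpe5 was at least 4.64-fold higher over the 3 knockout arrays and at least 4.79-fold on the 10-week arrays. Ehd2, a membrane trafficking gene, was at least 5.28-fold and 4.62-fold higher, and Tnfrsf21, which encodes death receptor 6, at least 5.23-fold and 6.52-fold. Cttnbp2nl was at least 5.08-fold and 6.08-fold higher in the same order, and Camk1, a calmodulin-dependent kinase gene, at least 2.39-fold and 2.53-fold. On the 21-week array Nxpe5, Ehd2, Tnfrsf21, Cttnbp2nl and Camk1 read -5.20, -4.55, -5.57, -5.50 and -6.24. Their means at 10 weeks were -5.07, -5.12, -4.62, -4.72 and -5.99. Each of the 15 genes of this group, from Nxpe5 to C6 in order of the test statistic, kept its call in all 6 fits that left out 1 array. Ehd2 and Camk1 lost their calls under another background correction (normexp).

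**Figure D2:**
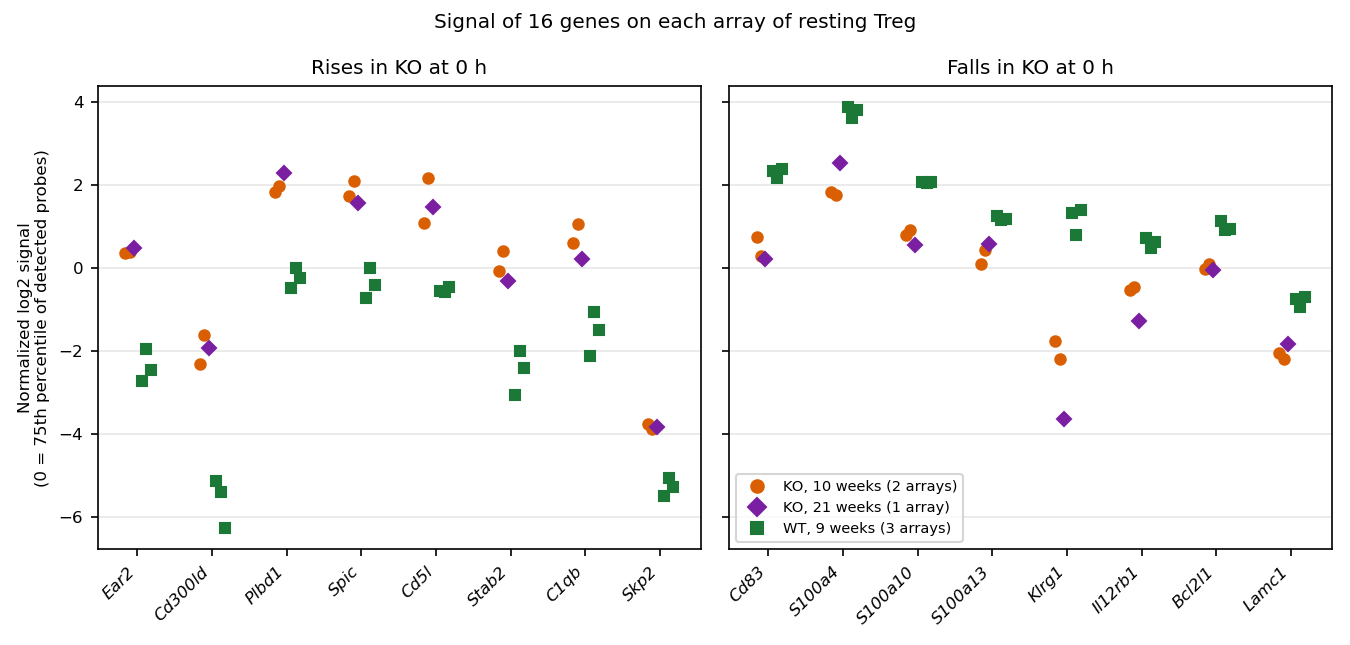
Normalized log2 signal (vertical axis; 0 is the 75th percentile of detected probes) of 8 genes called higher and 8 called lower in the knockout, with 1 marker per array: 10-week knockout (circles), 21-week knockout (diamonds) and wild type (squares). In all 16 genes the 3 knockout arrays lie on one side of the 3 wild-type arrays, and in Klrg1 the 21-week array lies farthest from them at -3.64.

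Macrophage markers were higher on all knockout arrays. Of 14 monocyte and macrophage markers tested, 10 were called higher and none lower, and 11 higher without the 21-week arrays. Of all genes tested, 1.82% and 4.71% were called higher in these fits. The median difference was 2.10, with 2.24 at 10 weeks and 1.74 at 21 weeks, beside medians of -0.03, 0.01 and -0.05 over all genes tested. Csf1r, the receptor for the macrophage growth factor CSF1, read 3.95 and 4.25 at 10 weeks, 3.88 at 21 weeks, and 1.42, 2.20 and 1.90 in wild type. It rose 4.55-fold (2.19 ± 0.315, limma adjusted p = 0.00946). Cd68, a lysosomal glycoprotein of macrophages, read 0.69 and 0.95 at 10 weeks, 0.64 at 21 weeks, and -1.15, -0.61 and -1.02 in wild type (3.21-fold, 1.68 ± 0.222, limma adjusted p = 0.00661). Cd300e rose by 2.40 at 10 weeks and 2.09 at 21 weeks (limma adjusted p = 0.00797 over both). Lyz2, the lysozyme gene of myeloid cells, had the widest spread, at -0.89 and -2.93 at 10 weeks, -0.61 at 21 weeks, and -5.14, -5.09 and -6.45 in wild type. On the wild-type arrays 13 of the 14 markers were also well above background on all 3. In bulk RNA, more cells of a type and more RNA per cell cannot be told apart. The count of 10 fell to 2 without wild-type replicate 1 and to 3 without wild-type replicate 3, and was 7 to 9 without any other array. Csf1r held in 5 of these 6 fits and Lyz2 in 1, while Cd68 and Cd300e held in all.

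Red pulp macrophage and iron-handling genes moved in the same direction. Of the 17 tested, 6 were called higher and 8 without the 21-week arrays, beside 1.82% and 4.71% of all genes tested. All 17 lay above 0 on the 10-week and on the 21-week arrays. Of the 17, 15 were above background on all wild-type arrays and 1 on none, and genes not detected in wild type entered through another group. Over the 15 genes with probes above background on all 6 arrays the median was 1.87, beside 2.13 over the 17. Over all 3 knockout arrays, 8799 of the 18544 genes tested lay above 0. Spic read 1.75 and 2.12 at 10 weeks, 1.56 at 21 weeks, and -0.72, 0.01 and -0.41 in wild type, a 4.54-fold rise (2.18 ± 0.294, limma adjusted p = 0.00709). Trf, which encodes the iron carrier transferrin, read 3.05 and 3.29 at 10 weeks, 3.49 at 21 weeks, and -0.01, 1.25 and 1.15 in wild type (5.57-fold, 2.48 ± 0.416, limma adjusted p = 0.0174). Both genes were among the brighter ones in the knockout. Vcam1, an adhesion molecule of red pulp macrophages, rose by 2.58 at 10 weeks and 1.71 at 21 weeks. Cd163, the scavenger receptor for haemoglobin bound to haptoglobin, was not above background on any wild-type array and was at least 4.15-fold higher, and at least 4.67-fold on the 10-week arrays (-4.89 and -5.31 at 10 weeks, -5.62 at 21 weeks). The count of 6 fell to 2 without knockout replicate 2, wild-type replicate 1 or wild-type replicate 3, and to 3 without knockout replicate 1. Spic and Cd163 kept their calls in all 6 fits that left out 1 array, and Vcam1 and Trf in 2.

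Scavenger receptors, complement genes and activating receptors of myeloid cells followed. Among 17 scavenger and efferocytosis receptors 9 were called higher, 11 without the 21-week arrays, with a median difference of 1.68 (1.79 at 10 weeks and 1.56 at 21 weeks). Stab2, which encodes stabilin-2, a receptor for hyaluronan, read -0.07 and 0.42 at 10 weeks, -0.31 at 21 weeks, and -3.05, -1.98 and -2.41 in wild type (5.63-fold, 2.49 ± 0.306, limma adjusted p = 0.00573). Cd5l, a secreted protein of macrophages, read 1.10 and 2.19 at 10 weeks, 1.49 at 21 weeks, and -0.55, -0.58 and -0.45 in wild type (4.34-fold, 2.12 ± 0.283, limma adjusted p = 0.00701). Among 15 complement genes 5 were called higher, including the 3 C1q chains, which start the classical pathway, and 7 without the 21-week arrays. C1qb read 0.61 and 1.06 at 10 weeks, 0.23 at 21 weeks, and -2.10, -1.04 and -1.48 in wild type (4.52-fold, 2.18 ± 0.322, limma adjusted p = 0.0103). C1qc rose by 2.22 at 10 weeks and 1.72 at 21 weeks, and C1qa by 2.12 and 1.43. C5ar2, a receptor for C5a, rose by 1.35 and 2.22. The 3 C1q genes held in 2 to 4 of the 6 fits that left out 1 array, C5ar2 in 2, and Stab2 and Cd5l in all. The complement count fell to 0 without wild-type replicate 1 or 3, to 3 without knockout replicate 1 and to 2 without knockout replicate 2. The scavenger count fell to 5 without wild-type replicate 1, wild-type replicate 3 or knockout replicate 2.

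Among 21 Fc receptors and ITAM adaptors 7 were called higher, 11 without the 21-week arrays, with medians of 1.92 at 10 weeks and 1.76 at 21 weeks. Pira6, of the paired immunoglobulin-like receptors, read -0.35 and -0.78 at 10 weeks, -1.01 at 21 weeks, and -2.80, -2.54 and -2.79 in wild type (3.99-fold, 2.00 ± 0.246, limma adjusted p = 0.00573). Pilra, an inhibitory receptor, and Pilrb1, its activating counterpart, rose by 2.28 and 2.75 at 10 weeks and by 1.76 and 2.14 at 21 weeks. Sirpa, the receptor through which CD47 restrains phagocytosis, rose by 2.15 and 2.41. Among the 13 myeloid C-type lectins tested of 21 in the list, 6 were called higher and 8 without the 21-week arrays, with medians of 2.22 at 10 weeks and 2.85 at 21 weeks. No wild-type array was above background for 3 of the 13, and over the 10 genes above background on all 6 arrays the median was 2.23. Clec1b, which encodes CLEC-2, read -2.35 and -2.21 at 10 weeks, -2.47 at 21 weeks, and -5.57, -4.58 and -4.76 in wild type (6.17-fold, 2.63 ± 0.321, limma adjusted p = 0.00573). Clec7a, which encodes the beta-glucan receptor Dectin-1, rose by 2.89 at 10 weeks and 4.26 at 21 weeks. Clec4n, which encodes Dectin-2, rose by 2.42 and 1.49, and Clec4a3 by 2.76 and 2.85. Pira6 and Clec1b kept their calls in all 6 fits that left out 1 array. Pilra held in 4 of these fits, Pilrb1 and Clec7a in 3, Clec4n in 2, and Sirpa and Clec4a3 in 1. The Fc receptor count fell to 2 and 1 without wild-type replicates 1 and 3, and to between 2 and 4 without any 1 knockout array. The lectin count fell to 1 without wild-type replicate 1 or 3, and to 2 and 3 without knockout replicates 1 and 3.

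Smaller groups held further rises. Of 16 eicosanoid genes 4 were called higher, with and without the 21-week arrays, led by Pla2g7, the platelet-activating factor hydrolase gene, with -1.76 and -2.11 at 10 weeks, -2.84 at 21 weeks, and -6.45, -4.44 and -5.16 in wild type (8.65-fold, 3.11 ± 0.468, limma adjusted p = 0.0109). Pla2g4a, the cytosolic phospholipase A2 gene that releases arachidonic acid, rose by 2.66 at 10 weeks and 3.23 at 21 weeks, and Tbxas1, thromboxane synthase, by 2.41 and 2.42. Of 18 matrix and growth factor genes 5 were called higher and 1, Lamc1, lower, against 6 and 1 without the 21-week arrays. Fn1, fibronectin, rose by 3.39 at 10 weeks and 5.82 at 21 weeks (18.4-fold, 4.20 ± 0.651, limma adjusted p = 0.0122), with wild type at -5.24, -5.61 and -4.99. Pdgfc, a platelet-derived growth factor gene, was at least 3.55-fold higher and at least 4.74-fold on the 10-week arrays, and Pdgfb rose by 1.43 and 1.24. Of 21 integrin subunits 3 were called higher, namely Itgax (2.76 at 10 weeks, 3.81 at 21 weeks), Itga9 (1.98 and 1.28) and Itgad (2.59 and 1.57). Itgax encodes CD11c of dendritic cells and macrophages, and Itgad the CD11d of red pulp macrophages. Without the 21-week arrays 4 integrin subunits were called higher and 1 lower. Of 25 lysosomal genes 1 was called over all arrays, the protease gene Ctsl (1.24 and 1.91), and 7 without the 21-week arrays. Il1b, the inflammatory cytokine gene, rose by 2.98 and 3.13, and the stress factor gene Atf3 was at least 4.64-fold higher (4.06-fold on the 10-week arrays). Of 13 IL-1 family and inflammatory cytokine genes tested, 1 was called higher. Over all 3 knockout arrays 7 of the 13 lay below 0, with a median of -0.49 (0.29 at 10 weeks, -0.65 at 21 weeks). Among 28 immediate early genes 2 were called higher, with a median of 0.01. Ccl2, a monocyte attractant, passed the test but was not above background on any of the 6 arrays, so no fold is given. Without wild-type replicate 1 the counts of the eicosanoid, matrix and integrin lists were 1, 1 and 0, and without wild-type replicate 3 they were 0, 1 and 0. Pdgfc and Ccl2 held in all 6 fits that left out 1 array, Pla2g7 and Il1b in 5, and Fn1, Itgax, Ctsl and Atf3 in 4. Ccl2 and Atf3 lost their calls under another background correction (normexp). Pdgfb held in 3, Itga9 and Itgad in 2, and Pla2g4a and Tbxas1 in 1.

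Falls were fewer, and S100 genes were among those with the largest test statistics. S100a10, the partner of annexin A2 in membrane complexes, read 0.80 and 0.93 at 10 weeks, 0.56 at 21 weeks, and 2.08, 2.07 and 2.09 in wild type. It fell 2.49-fold (-1.32 ± 0.136, limma adjusted p = 0.00336), by 1.21 at 10 weeks and 1.52 at 21 weeks. S100a4, a calcium-binding protein gene of motile and antigen-experienced T cells, read 1.84 and 1.77 at 10 weeks, 2.53 at 21 weeks, and 3.89, 3.64 and 3.82 in wild type (3.32-fold lower, -1.73 ± 0.208, limma adjusted p = 0.00573). Its second probe, the one printed above, differed by -1.78. In both genes the wild-type arrays lay within 0.3 log2 units of each other and the knockout arrays clearly below. S100a13 read 0.11 and 0.45 at 10 weeks, 0.58 at 21 weeks, and 1.27, 1.17 and 1.18 in wild type (-0.83 ± 0.157, limma adjusted p = 0.0273). S100a4 and S100a10 held in all 6 fits that left out 1 array, and S100a13 in 1. S100a4 also held in all 11 other alternative settings, whereas S100a10 lost its call with no shift between arrays.

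These 3 were the calls among the 20 S100, annexin and galectin genes tested, and none of the 20 was called higher. Without the 21-week arrays 6 were called lower, and 2 without any 1 of knockout replicate 1, knockout replicate 2 or the wild-type arrays. S100a6, the gene of calcyclin, read 2.04 and 1.56 at 10 weeks, 2.79 at 21 weeks, and 3.44, 3.19 and 3.29 in wild type (-1.51 at 10 weeks, limma adjusted p = 0.00553; -0.51 at 21 weeks). Lgals1, the gene of galectin-1, read 2.02 and 2.26 at 10 weeks, 3.40 at 21 weeks, and 3.58, 3.39 and 3.55 in wild type (-1.37 at 10 weeks, limma adjusted p = 0.00547; -0.10 at 21 weeks). On the 21-week array Lgals1 thus lay within the range of wild type, and over all 3 knockout arrays neither gene was called (limma adjusted p = 0.101 for S100a6 and 0.383 for Lgals1). Not all members were lower: Anxa3, an annexin gene, was 1.28 higher at 10 weeks and 2.13 higher at 21 weeks without a call, and is named here because it was the highest of the family at 10 weeks. The list median was -0.26, with -0.30 at 10 weeks and -0.45 at 21 weeks.

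**Figure D3:**
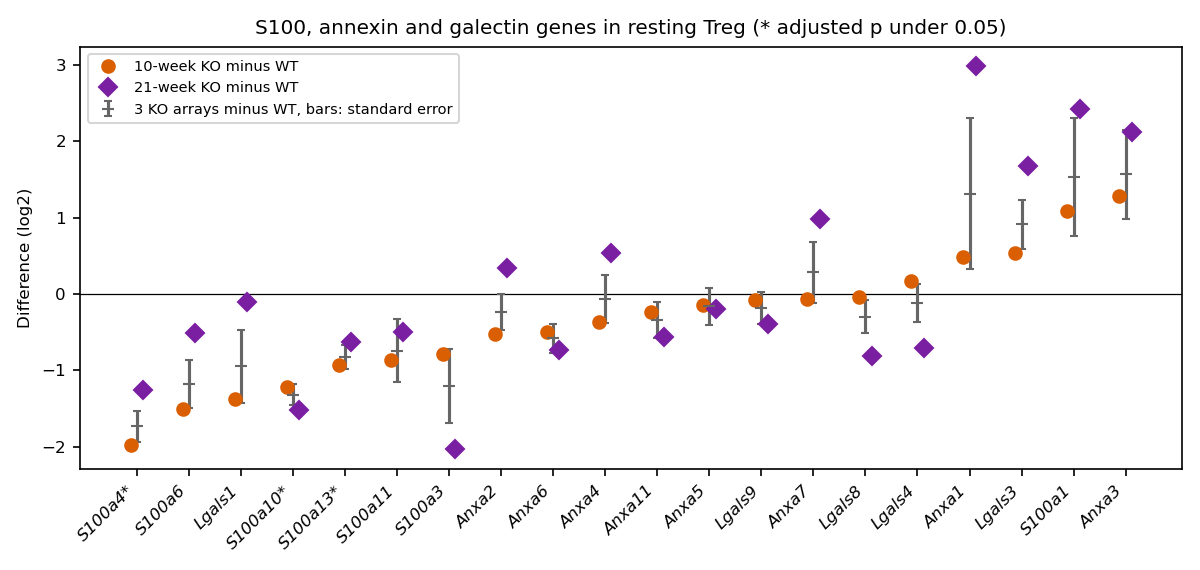
Difference from wild type (log2, vertical axis) for 20 S100, annexin and galectin genes, for the 10-week knockout arrays (circles), the 21-week array (diamonds) and all 3 knockout arrays with the standard error (grey bars). The 3 called genes, marked with an asterisk, are lower at both ages, whereas Lgals1 is -1.37 at 10 weeks and -0.10 at 21 weeks.

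Other falls included Il12rb1 and Bcl2l1. Il12rb1, the receptor subunit shared by interleukins 12 and 23, read -0.51 and -0.44 at 10 weeks, -1.26 at 21 weeks, and 0.72, 0.49 and 0.63 in wild type (2.55-fold lower, -1.35 ± 0.208, limma adjusted p = 0.0122). Bcl2l1, which encodes the anti-apoptotic protein BCL-XL, read -0.01 and 0.10 at 10 weeks, -0.03 at 21 weeks, and 1.14, 0.92 and 0.95 in wild type (1.98-fold lower, -0.98 ± 0.152, limma adjusted p = 0.0122). It was the only call among 20 genes of the BCL2 family and apoptosis. Lamc1, the laminin gamma 1 chain, fell by 1.32 at 10 weeks and 1.03 at 21 weeks, and Pglyrp1, a peptidoglycan recognition protein gene, by 0.96 and 0.97. Vegfc, a lymphatic growth factor gene, fell by 1.58 and 2.14. Slc52a3, a riboflavin transporter gene, fell by 1.30 and 2.04, and Pabpc1l, a poly(A)-binding protein gene, by 1.53 and 1.85. Gm5801 fell by 0.98 and 1.18. Il12rb1, Bcl2l1 and Vegfc each held in 4 of the 6 fits that left out 1 array, Pabpc1l in 5, Slc52a3 in all, and Lamc1, Pglyrp1 and Gm5801 in 3. Among dimmer probes, Frmd5 read -9.27 and -8.53 at 10 weeks, -8.77 at 21 weeks, and -5.16, -5.87 and -5.01 in wild type, and since no knockout array was above background it was at least 3.64-fold lower. The call of Frmd5 was lost under another background correction (normexp). 2310065F04Rik (-3.20 at 10 weeks, -3.39 at 21 weeks) was above background on 1 knockout array, and Cep112 (-2.01 and -3.72), a gene of the centrosome, on 2. The probe that stood for Cc2d2a, a gene of the cilium base, was not above background on any knockout array, so its differences (-2.13 and -2.86) give no exact fold. Cc2d2a was 0.99 higher, without a call (limma adjusted p = 0.701), when dim probes were not filtered out.

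Klrg1, a receptor of effector Treg, was lower on every knockout array by a wide margin, but its call was fragile. Its probe (chr6:122220629-122220688, minus strand, mm9) read -1.75 and -2.19 at 10 weeks, -3.64 at 21 weeks, and 1.33, 0.80 and 1.42 in wild type, so every knockout array lay at least 2 log2 units below every wild-type array. The signal was 13.1-fold lower (-3.71 ± 0.742, limma adjusted p = 0.0333), by 3.15 on the log2 scale at 10 weeks (limma adjusted p = 0.00286) and by 4.82 at 21 weeks. The call was lost in each of the 6 fits that left out 1 array, where the limma adjusted p reached 0.145, and held in 7 of the 11 other alternative settings.

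The effector Treg genes were mostly lower on the 10-week arrays. Of 32 tested, S100a4 and Klrg1 were called lower over all arrays and Pparg, the nuclear receptor gene of tissue Treg and macrophages, higher (1.44 at 10 weeks, 1.01 at 21 weeks). The call of Pparg held in 3 of the 6 fits that left out 1 array. Without the 21-week arrays 14 were called lower and Pparg higher, beside a background of 1.91% lower. With the 21-week array at 0 h alone left out, 2 were called lower. The list median was -0.89 at 10 weeks and -1.17 at 21 weeks, and 28 of 32 lay below 0 at 10 weeks and 24 at 21 weeks. Over all 3 knockout arrays, 9745 of the 18544 genes tested lay below 0. Beyond those above, the members called lower in the fit without both 21-week arrays were chosen for naming after their values were seen. Il1rl1, the receptor for interleukin-33, differed by -1.26 at 10 weeks (limma adjusted p = 0.00785) and -1.45 at 21 weeks. Rora, a nuclear receptor gene of tissue Treg, differed by -1.02 (limma adjusted p = 0.00761) and -2.93. Tnfrsf9, which encodes the costimulatory receptor 4-1BB, differed by -1.12 (limma adjusted p = 0.00971) and -3.43, and Tnfrsf4, which encodes OX40, by -1.08 (limma adjusted p = 0.0109) and -3.31. The chemokine receptor genes Ccr8 and Cxcr3 differed by -1.28 and -0.90 at 10 weeks and by -3.81 and -0.99 at 21 weeks. Icos, Tigit and Tnfrsf1b differed by -0.78, -1.21 and -0.90 at 10 weeks and by -1.94, -2.05 and -2.00 at 21 weeks. Fgl2, the gene of a soluble suppressive mediator, differed by -1.35 and -0.49. Over all 3 knockout arrays these 10 genes had limma adjusted p-values between 0.158 and 0.432 and were not called.

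Genes of Treg identity were lower by more on the 21-week array than on the 10-week arrays. None of the 20 core Treg genes was called over all arrays by limma. At an unadjusted limma p under 0.05, 1 was higher (5%) and 3 lower (15%), beside 10.6% and 4.78% of all genes tested. The list median was -0.37 at 10 weeks and -2.45 at 21 weeks, with 18 of the 20 below 0 at 10 weeks and 17 at 21 weeks. Il2ra, the interleukin-2 receptor alpha chain, read 2.26 and 1.71 at 10 weeks, -2.30 at 21 weeks, and 2.70, 2.55 and 2.62 in wild type. Itgae, the integrin CD103, read -3.97 and -4.29 at 10 weeks, -7.05 at 21 weeks, and -2.99, -2.77 and -2.37 in wild type. Without the 21-week arrays 4 of the 20 were called lower, and Foxp3 was called higher. The 4 were Capg (-0.88 at 10 weeks), Ctla4 (-0.60), Il2rb (-0.63) and Tnfrsf18 (-0.74). With the 21-week array at 0 h alone left out, these 4 and Foxp3 lost their calls. The array holds 1 probe named Foxp3 (chrX:7172301-7172360, plus strand, mm9), and it was not above background on any wild-type array, so it does not check the sort. It read -6.27 and -6.04 at 10 weeks, -2.86 at 21 weeks, and -8.63, -9.06 and -9.42 in wild type, at least 4.83-fold higher in the knockout and at least 2.26-fold on the 10-week arrays (limma adjusted p = 0.0503; 0.0142 at 10 weeks). The Treg genes Il2ra and Lrrc32 were bright in wild type, above 2.5 on all 3 arrays, and read -2.30 and -2.19 on the 21-week knockout array.

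General T cell genes followed the same order of arrays. Of 26 genes of the T cell receptor complex and its proximal signalling none was called over all arrays by limma, and none reached an unadjusted p under 0.05. The median was -0.13 at 10 weeks and -1.87 at 21 weeks. Lat, the adaptor of the T cell receptor, read 2.94 and 2.92 at 10 weeks, 0.15 at 21 weeks, and 3.38, 3.27 and 3.32 in wild type. Without the 21-week arrays 5 of the 26 were called lower. The 8 Gimap GTPases, survival proteins of lymphocytes, had medians of -0.22 and -1.81 with no limma call (1 lower at an unadjusted p under 0.05). The 20 genes of resting or naive Treg had medians of -0.05 and -1.73 with no limma call and none at an unadjusted p under 0.05. Id3, a brake on differentiation, was 1.30 and 1.29 at 10 weeks, -1.20 at 21 weeks, and 1.38, 1.49 and 1.58 in wild type. Of 24 CD28 family and other co-receptor genes Cd244a was called higher (0.89 at 10 weeks, 0.98 at 21 weeks), and 6 were called lower without the 21-week arrays. The call of Cd244a held in 1 of the 6 fits that left out 1 array and in 6 of the 11 other alternative settings.

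**Figure D4:**
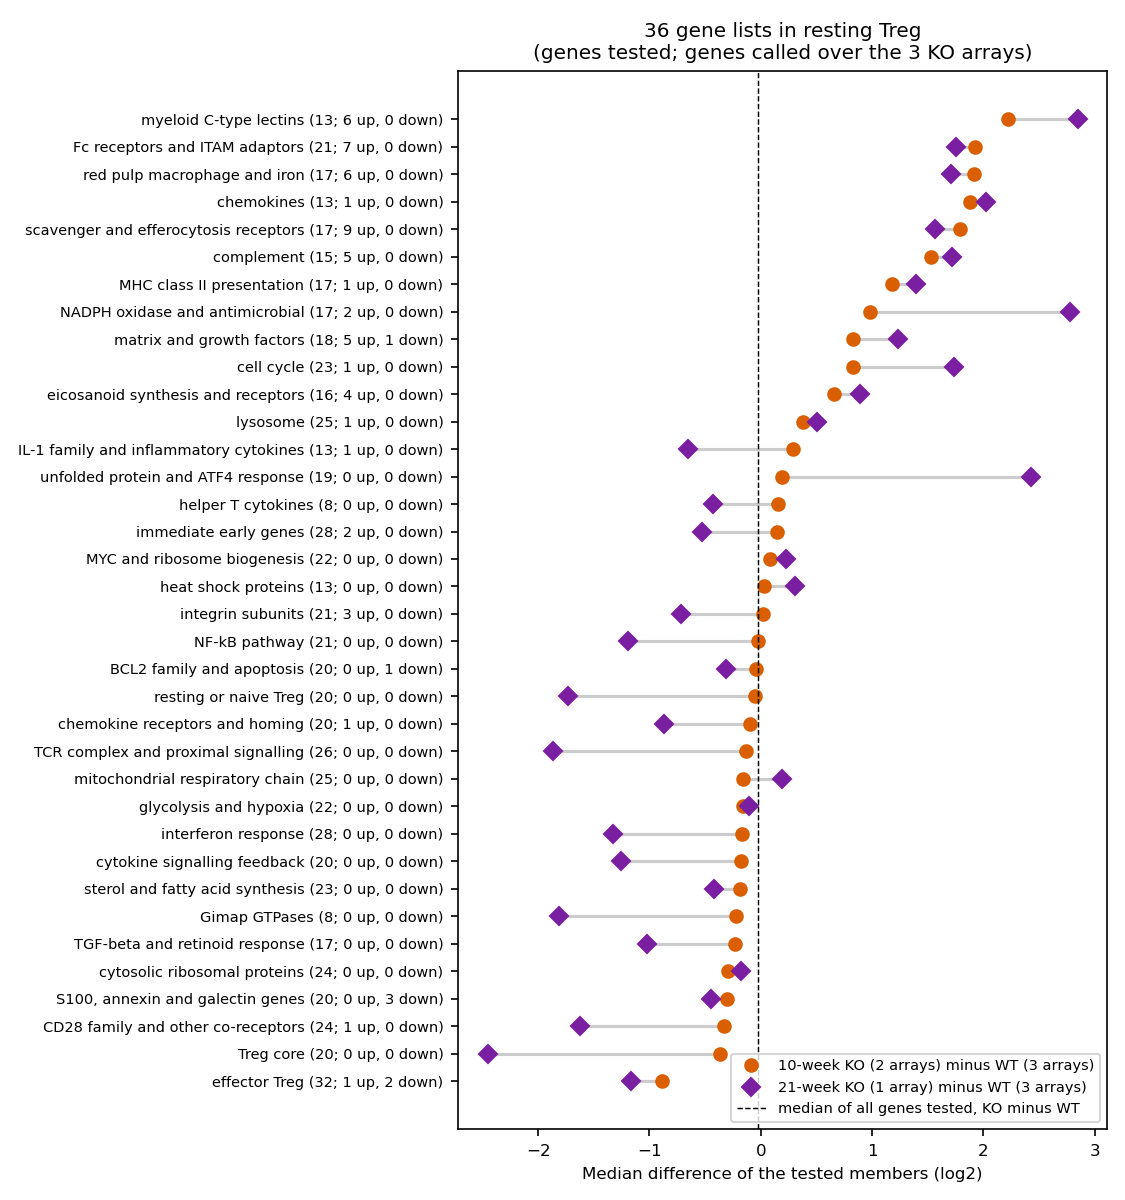
Median difference from wild type (log2, horizontal axis) of the tested members of 36 gene lists, for the 10-week knockout arrays (circles) and the 21-week array (diamonds), with the numbers tested and called beside each name and the all-gene median as a dashed line. The complement, scavenger, Fc receptor, lectin and red pulp lists lie between 1.53 and 2.85 at both ages, whereas the core Treg list is at -0.37 at 10 weeks and -2.45 at 21 weeks.

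Markers of other cell types were also higher on the knockout arrays, and their part in the results above was not tested. The mean of the 14 monocyte and macrophage markers, set against its wild-type mean, was 2.11 and 2.20 at 10 weeks and 1.93 at 21 weeks, with wild type between -0.32 and 0.34. For the 10 general T cell markers it was -0.39 and -0.31 at 10 weeks and -1.99 at 21 weeks, with wild type between -0.06 and 0.07. The 6 plasma cell markers were at 1.77 and 1.97 at 10 weeks and 6.44 at 21 weeks. Tnfrsf17, the plasma cell receptor BCMA, was not above background on any wild-type array (at least 25.2-fold higher in the knockout and at least 6.54-fold on the 10-week arrays) and read -5.07 and -4.17 at 10 weeks and 1.23 at 21 weeks. The 5 neutrophil markers were at 1.12 and 0.40 at 10 weeks and 4.56 at 21 weeks, and the 6 mast cell and basophil markers at 3.12, 2.19 and 5.75. Kit, the stem cell factor receptor of mast cells, was called (2.42 at 10 weeks, 4.97 at 21 weeks, limma adjusted p = 0.0395), a call lost in all 6 fits that left out 1 array. The 10 B cell markers were at 1.92 and 0.42 at 10 weeks and 2.13 at 21 weeks, and 1 wild-type array reached 0.93. The 9 erythroid markers were at 2.22, 3.02 and 2.70, with wild type between -1.15 and 0.98. Of the 8 dendritic cell markers, Itgax and Batf3 were called (Batf3 2.42 at 10 weeks, 3.04 at 21 weeks), and of the 6 NK cell markers Tyrobp, which myeloid cells share (1.92 and 2.73). The calls of Batf3 and Tyrobp each held in 1 of the 6 fits that left out 1 array. No marker of the B cell, plasma cell, neutrophil, erythroid, platelet or CD8 T cell lists was called over all arrays by limma, with 4, 2, 1, 8, 3 and 2 higher at an unadjusted p under 0.05. These are 40%, 33.3%, 20%, 88.9%, 100% and 100% of the markers tested, beside 10.6% of all genes tested. Only 3 of 6 platelet markers were tested, and 1 of them was above background on all wild-type arrays. Only 5 of 11 neutrophil markers were tested. A gene was tested if any group of arrays detected it, so markers not detected in wild type entered through another group, which favours a rise. The 2 stromal and endothelial markers tested, Kdr and Pecam1, differed by -0.86 and 0.45 at 10 weeks and by 1.23 and -1.40 at 21 weeks, with no call and none at an unadjusted p under 0.05 by limma.

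**Figure D5:**
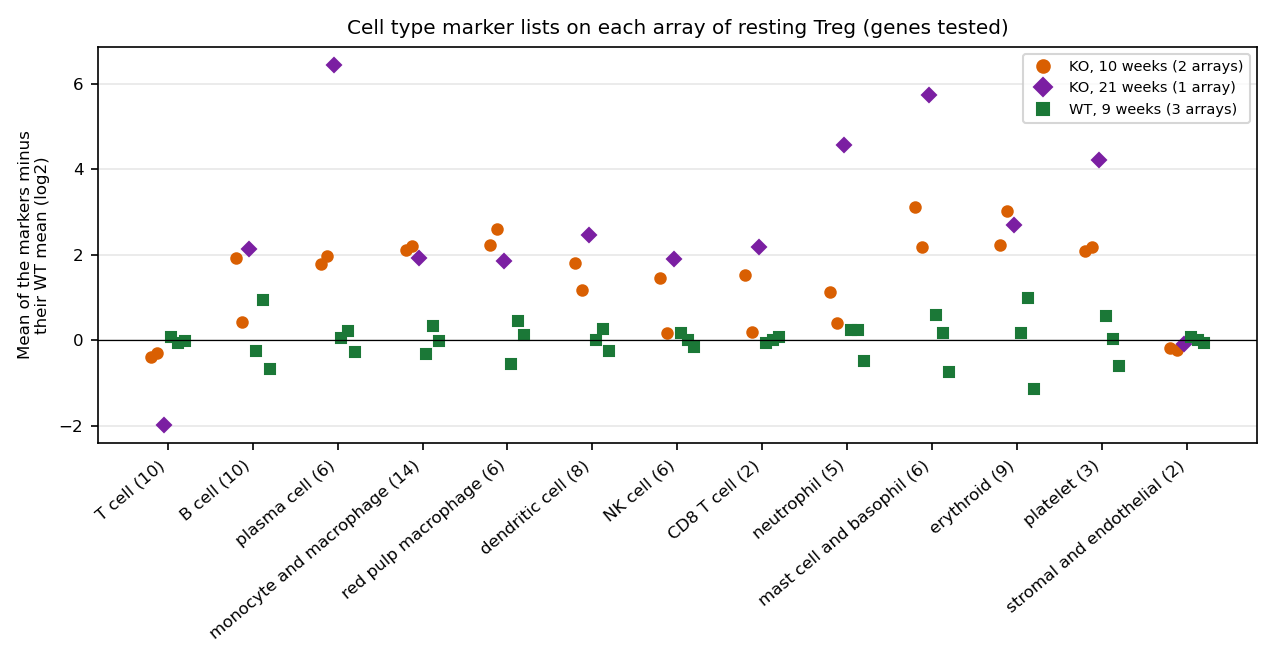
Mean of each cell type marker list minus its mean over the wild-type arrays (log2, vertical axis), 1 marker per array, for 13 lists with the number of genes tested. The 2 macrophage lists lie between 1.86 and 2.59 on all 3 knockout arrays, whereas the plasma cell (6.44), neutrophil (4.56) and T cell (-1.99) lists set the 21-week array apart.

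Of 23 cell cycle genes tested, 1 was called. Mcm2, a subunit of the replicative helicase, was called higher, with -0.83 and -0.59 at 10 weeks, -0.55 at 21 weeks, and -1.42, -1.72 and -1.58 in wild type (1.89-fold, 0.92 ± 0.16, limma adjusted p = 0.0204). The call of Mcm2 held in 1 of the 6 fits that left out 1 array, the one without knockout replicate 1. All knockout arrays lay above all wild-type arrays in 20 of the 23, against 16.9% of all genes, and the median was 0.83 at 10 weeks and 1.74 at 21 weeks. In the unfolded protein and ATF4 response, which answers stress of the endoplasmic reticulum and amino acid shortage, limma called none of 19 genes. At an unadjusted limma p under 0.05, 3 of them were higher (15.8%), beside 10.6% of all genes tested. Chac1, a glutathione-degrading target of ATF4, read -6.05 and -4.71 at 10 weeks, 0.64 at 21 weeks, and -7.04, -7.93 and -6.95 in wild type, and Asns, asparagine synthetase, -0.15, 0.71 and 2.62 against -1.45, -1.39 and -2.42. The list median was 0.19 at 10 weeks and 2.43 at 21 weeks. Of 17 genes of MHC class II presentation Cd80, a costimulatory ligand, was called (0.87 at 10 weeks, 1.29 at 21 weeks), although its second probe differed by -0.63. The call of Cd80 held in 1 of the 6 fits that left out 1 array and in 4 of the 11 other alternative settings. The list median was 1.18 and 1.39, and 4 were called higher without the 21-week arrays.

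Several broad programmes gave no limma call over all arrays. Their counts at an unadjusted limma p under 0.05 stand beside 10.6% higher and 4.78% lower of all genes tested. Of 28 interferon response genes none was called, with 3 lower at an unadjusted p under 0.05, and the median was -0.17 at 10 weeks and -1.32 at 21 weeks. Ifit3, an antiviral gene, read -0.87 and -2.56 at 10 weeks, -3.58 at 21 weeks, and -1.29, -1.22 and -0.57 in wild type. The 25 respiratory chain genes had a median of -0.16 at 10 weeks, with 21 below 0, and of 0.19 at 21 weeks, with 21 above 0. The 22 glycolysis and hypoxia genes had medians of -0.16 and -0.10. In these lists, in that order, 0 and 2 were higher and 1 and 3 lower at an unadjusted p under 0.05. The 24 cytosolic ribosomal protein genes had a median of -0.29 at 10 weeks and -0.17 at 21 weeks, with 2 lower at an unadjusted p under 0.05. The 22 MYC and ribosome biogenesis genes, the 13 heat shock genes and the 23 sterol and fatty acid genes had medians of 0.08, 0.03 and -0.19 at 10 weeks and 0.23, 0.31 and -0.42 at 21 weeks, all without a limma call over all arrays. In these 3 lists 1, 3 and 1 genes were higher and 0, 0 and 2 lower at an unadjusted p under 0.05. The 21 NF-kB genes, 17 TGF-beta and retinoid genes and 20 cytokine feedback genes had medians of -0.02, -0.23 and -0.17 at 10 weeks and -1.19, -1.02 and -1.26 at 21 weeks, with no limma call over all arrays and 1, 0 and 1 higher and 0, 1 and 1 lower at an unadjusted p under 0.05.

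The fit without both 21-week arrays called further genes. Crip1, a LIM-domain protein gene of effector lymphocytes, read 4.44 and 4.45 at 10 weeks, 4.81 at 21 weeks, and 5.16, 5.24 and 5.21 in wild type (-0.76 at 10 weeks, limma adjusted p = 0.00449; 0.0604 over all arrays). Plxnd1, a semaphorin receptor gene, read -1.25 and -1.29 at 10 weeks, -0.60 at 21 weeks, and 0.01, -0.19 and -0.12 in wild type (-1.17 at 10 weeks, limma adjusted p = 0.00444). Csrp2, another LIM-domain gene, differed by -1.22 at 10 weeks (limma adjusted p = 0.00444) and was 0.29 higher at 21 weeks. Myo1f, an unconventional myosin gene of leukocytes, differed by -0.68 (limma adjusted p = 0.00721) and -0.35. In each of these 4 falls the 21-week array lay closer to wild type than the 10-week arrays did, or beyond it. They were chosen for a call at 10 weeks that was absent over all arrays, which favours such values. Cpe, a fall chosen by the same rule, went the other way (-1.07 at 10 weeks, -2.45 at 21 weeks). Among the rises of that fit, Plxnb2, a second semaphorin receptor gene, read -0.50 and -0.35 at 10 weeks, 0.18 at 21 weeks, and -2.37, -2.02 and -2.31 in wild type (1.81 at 10 weeks, limma adjusted p = 0.0032). Pak1, a kinase of the cytoskeleton, differed by 1.20 (limma adjusted p = 0.00363) and 0.99, and Kctd12 by 1.64 (limma adjusted p = 0.00412) and 2.89. Rims3, which encodes a regulator of exocytosis, differed by 1.47 (limma adjusted p = 0.00363) and 0.29. The fit rests on 2 knockout arrays at 0 h and also leaves out the 21-week array at 3 h. Of the genes chosen by rule for naming, 23 gained a call in it. With the 21-week array at 0 h alone left out, 3 did. The rule had itself picked 10 rises and 10 falls called in the fit without both and not over all arrays. The count of 23 therefore does not measure the effect of that fit. The standard error of Pak1 was 0.638 over all arrays and 0.116 in the fit without both.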

How the data were processed

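Total RNA of sorted splenic Treg was labelled with Cy3 and hybridised to Agilent mouse arrays, 1 sample per array. Intensity values were deposited by the authors as scanner output, background-subtracted by Agilent Feature Extraction 10.7.3.1 per the file headers (version 11, and Partek, per the submitters' processing notes). A log2 table of the same arrays was also deposited by the authors, and it served as an alternative only. Here, log2 processed intensity was shifted by each array's 75th percentile, taken over the 19798 probes that Feature Extraction marked as detected on every one of the 12 arrays, since a mean of 47.4% of probes per array were. Control and outlier spots were left out, and 55681 probes averaged. A probe was kept if some group of the 4 had it detected on its 3 arrays, and the brightest kept probe stood for its gene. limma 3.58.1 in R 4.3.3 fitted 4 group means (8 residual degrees of freedom, two-sided, Benjamini-Hochberg over 18544 genes, threshold 0.05), and the script was tested on simulated data. Probe accessions matched RefSeq for 27509 probes, symbols for 3549 and synonyms for 404, and 24219 kept the file's name.

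A bound ("at least N-fold") sets the brighter group's mean against, per array of the dimmer group, the higher of the lowest signal well above background and the probe's own. The precision is limited by the number of arrays. Members and gene lists were chosen with earlier results of these data known. Named genes were Cd83, the 15 rises and 15 falls with the largest statistics, up to 4 called members per list (or 2 by size where none was called), the 10 rises and 10 falls called only without the 21-week arrays, and the 10 highest and lowest on the 21-week array. Not all are printed. Of the listed genes, 3 matched no probe. Alternatives covered the scaling, background correction, dim-probe filter, probe choice, arrays fitted and each array left out.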

Additional observations from a re-analysis of the deposited data

How the results depend on the processing

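Genes called higher numbered 337 as reported and 222 when only probes above background on all 6 arrays at 0 h were kept, against 243 to 383 under the other alternatives that kept all arrays. Without both 21-week arrays 874 were higher and 355 lower. Genes called lower numbered 48, against 103 with the 75th percentile over all probes, 19 with no shift between arrays and 25 with no filter on dim probes. Leaving out 1 array gave 71 to 265 higher, 10 to 31 lower, and a Cd83 difference of -2.04 to -1.78. The median of all genes was -0.03 as reported, -0.22 with the percentile over all probes, -0.13 with quantile normalization, and -0.13 in the deposited log2 table, so list medians near 0 have no settled sign. Cc2d2a alone reversed (0.99, with no filter). Of the 78 named calls, 24 held in every alternative run. No paired analysis was possible because replicate numbers follow accession order and the labels tie no array to a mouse. Slide as a random block was not run, since each group lies on 1 slide. Dim signal limits the 73 rises and 5 falls without signal above background in one group to bounds.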
